A study of Mus musculus with 8 samples.

Results

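Hepatocyte cluster 3 is 1 of 13 clusters of liver nuclei in a table of mean gene levels, and it is described here through its 2 columns, 1 from a pool of control livers and 1 from a pool of Tgfbr1 MKO livers, out of 26 columns in all. Both columns were taken by their cluster number, over all 22578 genes, and the working name of the cluster, hepatocyte nuclei rich in methionine genes, came with the 5 markers Egfr, Bhmt, Cth, Got1 and Mat1a. The study concerns mice in which myeloid cells lack Tgfbr1, a receptor kinase for TGF-beta, in MASH (metabolic dysfunction-associated steatohepatitis). The control animals carried flox/flox alleles, and the MKO animals carried the same alleles with LysMcre, a Cre recombinase driven from a gene of monocytes, macrophages and granulocytes. Hepatocytes are therefore not the cells in which the Cre is made. Every animal of both genotypes had eaten the MASH diet for 30 weeks, and no group without the diet or without flox alleles is part of the comparison. Each nucleus library was a pool of 3 livers, so there was 1 sample per genotype and no replicate, and nothing within the nuclei could be tested. Bulk RNA-seq of whole liver gave 3 further libraries per genotype. The labels number these libraries but do not say that they were separate animals, or whether their livers were also those in the pools, and p-values measure only the spread between these libraries. The animals' age and sex were not given in the sources used here.

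Methionine is turned in hepatocytes into S-adenosylmethionine, the general methyl donor, and the homocysteine left after methyl transfer is either remethylated to methionine or passed to cysteine by transsulfuration. Bhmt remethylates homocysteine with betaine, Gnmt disposes of excess S-adenosylmethionine by methylating glycine, and Cth makes the last step to cysteine. These enzymes are among the abundant liver-restricted enzymes of amino acid metabolism, much of which, with urea synthesis, is known to be strongest in periportal hepatocytes, while cytochromes P450 and glutamine synthesis belong to pericentral ones. Egfr, the receptor for epidermal growth factor, is also high in normal hepatocytes.

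Bhmt lies on the minus strand of chromosome 13 (chr13:93616675-93637961, mm10, GENCODE M21), Gnmt on the minus strand at chr17:46725664-46729168, Got1 on the minus strand at chr19:43499752-43524605, Egfr on the plus strand at chr11:16752203-16918158, Cth on the minus strand at chr3:157894248-157925077 and Mat1a on the plus strand at chr14:41105035-41124412. The antisense gene Gm15622 lies inside Bhmt on the opposite strand and Egfros lies inside Egfr in the same way. Strand use in counting was not given in the sources used here. Reads of each pair therefore cannot be told apart, and the values of Gm15622 and Egfros are uncertain. The bases before the start sites of 4 genes are shown because these genes carry the pattern described for the cluster, 3 of them being higher in the MKO pool there and Egfr being high in both pools. They were read 5′ to 3′ on the strand of the gene from the RefSeq promoter table of GRCm38.p6, and only bases outside annotated exons are given. The intervals are chr13:93637962-93638008 on the minus strand for Bhmt, of which 47 bases lie outside exons, chr17:46729169-46729415 on the minus strand for Gnmt, chr19:43524606-43524855 on the minus strand for Got1 and chr11:16751953-16752202 on the plus strand for Egfr. Capitals mark the only match found to the motifs searched.
Bhmt: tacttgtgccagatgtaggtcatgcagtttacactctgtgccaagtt
Gnmt: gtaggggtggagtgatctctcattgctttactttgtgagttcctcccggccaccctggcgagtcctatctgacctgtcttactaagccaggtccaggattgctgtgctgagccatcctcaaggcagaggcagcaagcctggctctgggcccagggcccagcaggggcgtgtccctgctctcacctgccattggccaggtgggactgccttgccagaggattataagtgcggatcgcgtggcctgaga
Got1: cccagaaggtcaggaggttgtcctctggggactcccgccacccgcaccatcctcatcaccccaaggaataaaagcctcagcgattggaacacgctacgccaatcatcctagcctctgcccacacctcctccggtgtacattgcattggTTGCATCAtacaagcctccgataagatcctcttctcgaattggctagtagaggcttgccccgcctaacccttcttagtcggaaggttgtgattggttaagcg
Egfr: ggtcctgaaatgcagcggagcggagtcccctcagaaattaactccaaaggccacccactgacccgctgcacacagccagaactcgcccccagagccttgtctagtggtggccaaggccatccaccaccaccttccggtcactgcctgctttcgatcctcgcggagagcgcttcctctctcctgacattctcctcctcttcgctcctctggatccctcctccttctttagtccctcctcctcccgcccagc
Both strands of the 250 bases before each start site were searched for 5 motifs. TGATGCAA, the composite element known to bind ATF4 with C/EBP proteins, was found on the opposite strand of Got1, 102 bases before the start site, and 0.791% of 32851 promoters hold it. The E-box CACGTG, the binding site of clock proteins and other factors, was not found in these windows and is held by 6.02% of promoters. TTGCGCAA, a C/EBP site, is held by 0.164% of promoters, CAAAGTCCA, an HNF4 site, by 0.384% and TGACNNNGC, the core of the antioxidant response element, by 10.2%. Of the 5 markers, 3 have an entry in the promoter table, while Cth and Mat1a do not.

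Egfr set cluster 3 apart from every other cluster in both pools. Levels are means per 10000, since each column of the table sums to 10000. Egfr stood at 46.6 in the control and 41.9 in the MKO pool, against 5.53 and 5.91 in cluster 0 and 11.5 and 14.98 in cluster 1, the other clusters with hepatocyte markers. In the remaining 10 clusters it lay between 0.903 and 4.33 in the control and between 0.269 and 3.82 in the MKO pool. Mat1a, which makes S-adenosylmethionine in adult liver, was also highest in cluster 3 in both pools, at 27.3 and 45.7, with 21.8 and 11.7 in cluster 1. The same held for Got1, the cytosolic aspartate aminotransferase, at 2.98 and 6.25 in cluster 3 and 2.33 and 0.634 in cluster 1.

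The other 2 markers fitted the name in the MKO pool and not in the control pool. Bhmt was at 3.75 in cluster 3 of the control pool, below clusters 1 (9.76) and 0 (4.56), and at 40.4 in cluster 3 of the MKO pool, where clusters 1 and 0 held 3.94 and 2.94. Cth was at 7.27 in the control pool, below the 17.4 of cluster 1, and at 23.5 in the MKO pool, where cluster 1 held 2.36. Cluster 3 thus ranked 3 of 13 for Bhmt and 2 of 13 for Cth in control livers, and 1 of 13 for both in MKO livers. In the control column the cluster was thus highest for Egfr, Mat1a and Got1 of its 5 markers, and in the MKO column for all 5. Because the clusters were made from these same genes, the levels are a description and carry no test.

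**Figure D1:**
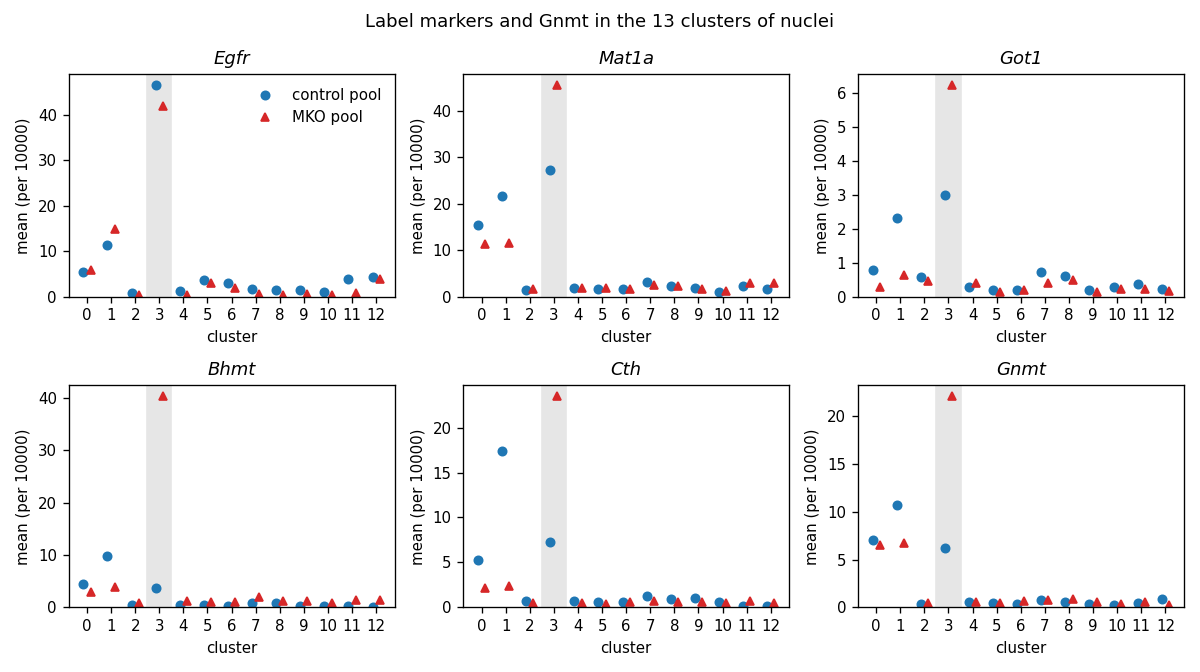
Mean level per 10000 (vertical axis) in each of the 13 clusters (horizontal axis) for the 5 markers and Gnmt, with circles for the control pool, triangles for the MKO pool and cluster 3 shaded. Egfr, Mat1a and Got1 are highest in cluster 3 in both pools, while Bhmt, Cth and Gnmt are highest there in the MKO pool only.

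Cluster 3 was hepatocyte-like by its identity genes. The summed level of 29 hepatocyte genes was 274 in the control and 337 in the MKO pool, against 196 and 302 in cluster 0 and 320 and 336 in cluster 1. The 10 other clusters held sums of 68.8 to 170.0 in control and 116 to 250.3 in MKO livers. Alb, the albumin gene, did not separate hepatocytes in this table, at 45.2 and 45.7 in cluster 3 and up to 50.3 and 72.6 in the 10 other clusters. Apob, which carries lipid out of hepatocytes, did, at 14.5 and 16.0002 in cluster 3 and at most 5.32 and 4.51 in those 10. Hnf4a, a master regulator of hepatocyte identity, was at 3.06 and 2.80. Over 2364 genes on the log2 scale, the control column of cluster 3 correlated with its MKO column at r = 0.860, with cluster 1 of the control pool at 0.866 and with cluster 0 at 0.835. The MKO column correlated with cluster 1 of its own pool at 0.806 and with cluster 0 at 0.784. These correlations across genes describe the columns, which share libraries within a pool and a common gene composition, and carry no test.

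Markers of other cell types were near 0 in cluster 3 in both pools. The 21 macrophage genes summed to 0.941 and 1.42, against 107 and 127 in cluster 2, with Trem2 at 0 in the MKO pool. The 16 endothelial genes summed to 0.529 and 0.736 against 205 and 205 in cluster 4, and the 18 stellate cell genes to 0.232 and 0.214 against 141 and 142 in cluster 5, with Nes at 0 in both pools and Cygb in the control pool. Bile duct genes summed to 2.67 and 3.996 against 173 and 165 in cluster 6, with Krt19 at 0 in the control pool and Krt7 and Cftr at 0 in the MKO pool. T and NK cell genes summed to 0.335 and 0.235, and B lineage genes to 0.0554 and 0.0540. The 12 genes of dividing cells summed to 0.0743 and 0.0833. Klk1 was at 0 in both pools, and the 9 plasmacytoid dendritic cell genes summed to 3.24 and 2.40, with sums of 2.73 and 2.80 in cluster 0. The 9 mesothelial genes summed to 0.0366 and 0.0135.

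In cluster 3, Tgfbr1 itself was at 1.25 in control and 1.10 in MKO livers, 1.20 and 1.11 in cluster 0 and 1.12 and 0.996 in cluster 1. Reads at the end of the transcript may lie outside the floxed part, which was not given in the sources used here. These values therefore do not check the deletion.

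Between the pools, Bhmt, Gnmt and Cth of methionine metabolism were among the genes higher in cluster 3 of the MKO pool. For this comparison a gene was used when the larger of its 2 cluster 3 values was at least 1.24, the 90th percentile, which kept 2056 genes, and the log2 ratio was taken after adding 0.124. A gene that passes the filter through its higher pool alone had to differ, so counts below describe the lists and support nothing. Of those 2056 genes, 82 were at least 2-fold higher in the MKO pool (3.99%) and 72 at least 2-fold lower (3.5%), and the median log2 ratio was -0.12. Centring the ratios on that median gave 114 higher and 50 lower, so the share of higher genes among them went from 53.2% to 69.5%, and leaving the 50 most abundant genes out of the totals gave 95 higher and 63 lower, or 60.1%. With a pseudocount of 1/2 of the 90th percentile the counts were 41 and 41. Over the same genes cluster 0 had 33 higher (1.61%) and 27 lower (1.31%), and cluster 1 had 25 higher (1.22%) and 30 lower (1.46%). Just inside the higher threshold stood Cyp4a10 at 1.005 and just outside it Gm31121 at 0.9997, with Tef at -1.003 just inside the lower one and Fnip1 at -0.997 just outside.

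**Figure D2:**
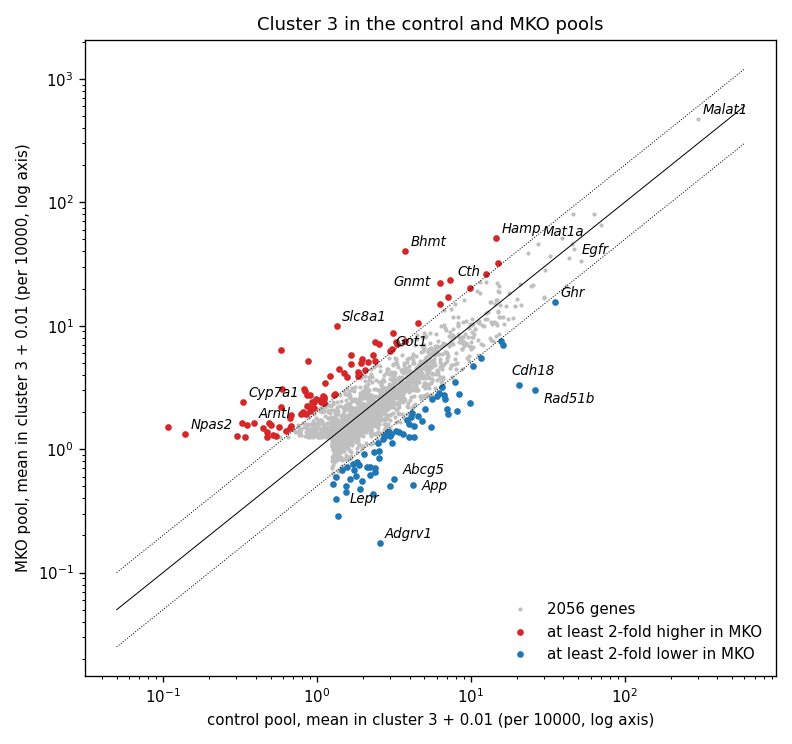
Level in cluster 3 of the control pool (horizontal) and of the MKO pool (vertical), mean per 10000 plus 0.01 on log axes, 1 point per gene for 2056 genes. The solid line marks equal levels and the dotted lines a 2-fold difference without pseudocount; 82 genes in red are at least 2-fold higher in the MKO pool and 72 in blue at least 2-fold lower.

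In the list of 25 methionine cycle and transsulfuration genes, 17 passed the filter, 6 were at least 2-fold higher in the MKO pool and none lower. The median log2 ratio was 0.52 in cluster 3, -0.20 in cluster 0 and -0.37 in cluster 1, where the medians over all 2056 genes were -0.12, -0.06 and -0.09. The list and the other lists were chosen with earlier results of these data known.

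Among the remethylating enzymes, Bhmt had the largest ratio of all 2056 genes, 3.39 on the log2 scale, with log2 ratios of -0.61 in cluster 0 and -1.28 in cluster 1. Bhmt2, its neighbour on chromosome 13 that uses S-methylmethionine, was at 2.15 in the control and 5.03 in the MKO pool, a log2 ratio of 1.18, and in clusters 0 and 1 its log2 ratios were -0.49 and -0.37. Dmgdh, which degrades the dimethylglycine that Bhmt forms, was at 2.39 and 7.30, a ratio of 1.56. The cobalamin-dependent route was low in both pools, with Mtr at 0.188 and 0.158 and Mtrr at 0.118 and 0.0839, both under the filter. Chdh, which makes the betaine precursor from choline, went the other way without reaching 2-fold, at 2.24 and 1.42.

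The methyl-consuming step through glycine was also higher. Gnmt stood at 6.27 in the control and 22.2 in the MKO pool, a log2 ratio of 1.80, while it was at 7.06 and 6.50 in cluster 0 and at 10.7 and 6.73 in cluster 1. Nnmt, which spends methyl groups on nicotinamide, was at 0.950 and 2.13. Pemt, which makes phosphatidylcholine by methylation, differed little at 2.04 and 2.29, and Mat2a, the S-adenosylmethionine synthase of non-hepatic and growing cells, did so too at 1.23 and 1.27. Ahcy, which cleaves S-adenosylhomocysteine, was at 0.345 and 1.16, under the filter.

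In transsulfuration, Cth had a log2 ratio of 1.68 in cluster 3, -1.26 in cluster 0 and -2.82 in cluster 1. Cbs, the step before it, was at 2.30 and 2.65 in cluster 3, a ratio of 0.20, and at 2.22 and 1.05 in cluster 1. Cdo1, which oxidises cysteine, was at 2.95 and 5.48. Gclc, the rate-limiting enzyme of glutathione synthesis, was at 4.10 and 3.12, with 7.49 and 7.90 in cluster 0. Adk, the adenosine kinase that removes the other product of S-adenosylhomocysteine cleavage, was at 70.6 and 64.9. The 6 members past 2-fold were thus Bhmt, Bhmt2, Dmgdh, Gnmt, Nnmt and Cth, while Mtr, Cbs and Gclc did not reach 2-fold or did not pass the filter.

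Other nitrogen-handling lists had medians above that of all genes. Genes past 2-fold in a list are named here after their values were seen. Among 14 urea cycle and ammonia genes, 12 passed the filter and 2 were higher, Arg1 (7.12 in the control column and 16.97 in the MKO column), which releases urea, and Asl (1.66 and 4.90), which cleaves argininosuccinate, with none lower and a median of 0.38. Cps1, the entry enzyme of the cycle, was at 46.2 and 81.0, a ratio of 0.81, and Ass1 was at 7.26 and 6.84. Of 28 amino acid catabolism genes, 22 passed and 3 were higher: Aass (6.30 and 15.01), which starts lysine breakdown, Hal (3.28 and 7.35), which deaminates histidine, and Got1. The median of that list was 0.33. Aass was lower in the MKO pool in both other hepatocyte clusters, at 5.58 and 2.53 in cluster 0 and 9.89 and 3.81 in cluster 1.

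Of 18 folate and one-carbon genes, 8 passed the filter, with a median of 0.54. Gldc, of the glycine cleavage system, was higher at 1.55 and 3.82, and so was Amdhd1 of histidine breakdown at 3.31 and 7.04. The mitochondrial Mthfd1l was lower at 1.54 and 0.443. Of 11 gluconeogenesis genes, 9 passed and 2 were higher, G6pc, which releases free glucose, at 1.65 and 5.74, and Mdh1 at 0.667 and 1.54, with a median of 0.08. Pck1, the committed step, was at 11.4 and 18.3.

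**Figure D3:**
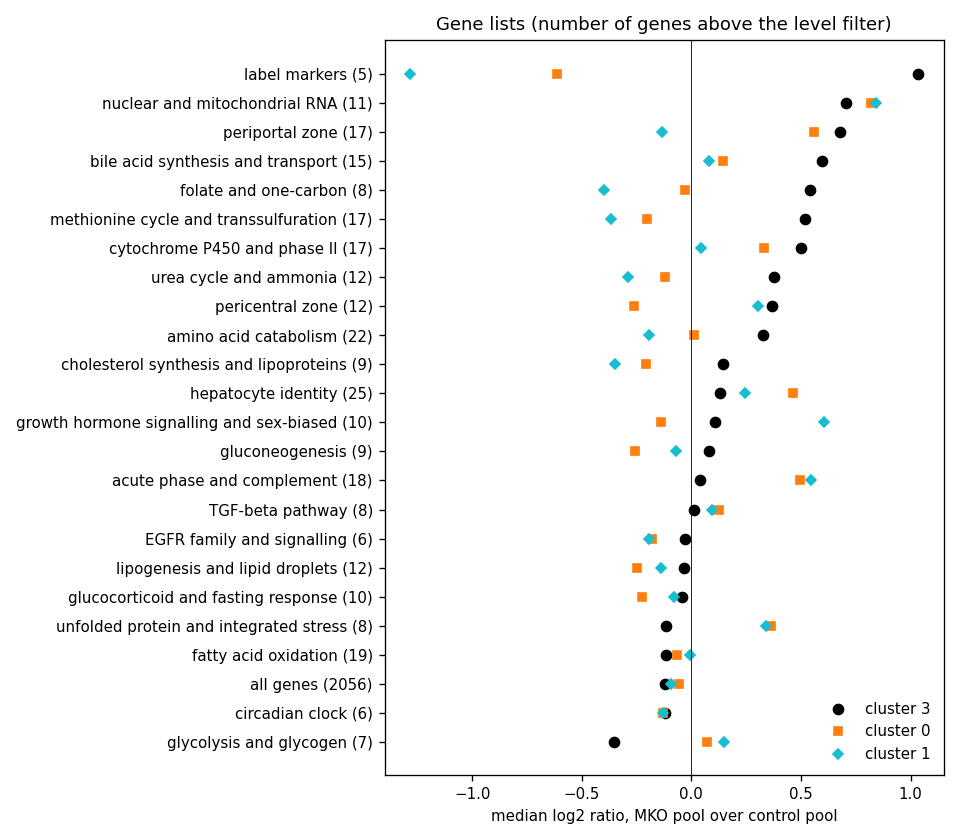
Median log2 ratio of MKO over control pool (horizontal axis) for each gene list (vertical axis, with the number of genes above the filter), with circles for cluster 3, squares for cluster 0 and diamonds for cluster 1. In cluster 3 the methionine list stands at 0.52 and the urea cycle list at 0.38, with all genes at -0.12.

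Of 20 periportal genes, 17 passed, 6 were higher and none lower, and the median was 0.68, against 0.56 in cluster 0 and -0.13 in cluster 1. Besides Asl, Arg1 and Hal they were Cyp2f2 (0.855 and 2.75), a periportal cytochrome P450, Etnppl (0.950 and 2.42), which degrades phosphoethanolamine, and Pigr (0.493 and 1.55), which carries IgA into bile. Of 22 pericentral genes, 12 passed and 2 were higher, with a median of 0.37. These were Cyp7a1, the rate-limiting enzyme of bile acid synthesis, at 0.323 and 2.42, and Cyp2c29, at 0.340 and 1.55. Cyp7a1 in the MKO column thereby came near its levels in cluster 0, which were 4.21 and 3.73. Cyp2e1, a defining pericentral gene, was at 6.21 and 6.72.

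Several other genes were among the highest ratios in cluster 3. Slc8a1, a sodium-calcium exchanger, was at 1.34 in the control and 9.90 in the MKO pool, with values between 0.345 and 0.924 in clusters 0 and 1. Npas2 and Arntl, which form the activating arm of the circadian clock, were at 0.129 and 1.33 and at 0.381 and 1.63. On the opposite arm, Nr1d2, a repressor, was at 1.82 and 0.784 and the output factor Tef at 1.46 and 0.665. In the clock list of 22 genes, 6 passed the filter, 2 were higher and 2 lower, with a median of -0.12.

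Hamp, the iron hormone hepcidin and a target of BMP signalling, was at 14.7 and 51.2, and Id3, another BMP target, at 0.821 and 2.97. In the TGF-beta list of 27 genes, 8 passed and these were the 2 higher ones, with a median of 0.01. The remaining genes with the highest ratios were Gm15622 (3.20), AA986860 (2.42), Zbtb7c (1.99) and the carboxylesterase Ces3b (2.86), whose reads may be shared with close relatives. Gm15622 was at 0.577 and 6.31 and lies inside Bhmt.

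The genes with the lowest ratios were of other kinds. Rad51b, a recombination gene, was at 26.2 in the control column of cluster 3 and 3.003 in the MKO column, and at 5.72 and 8.60 in cluster 0. Cdh18, a cadherin, was at 20.5 and 3.32, with 19.8 and 13.8 in cluster 1. App, the amyloid precursor gene, was at 4.21 and 0.502, and Lepr, the leptin receptor, at 2.98 and 0.490, while in clusters 0 and 1 the highest value of App was 0.769 and that of Lepr 0.248. In the control column all 3 genes, Rad51b, App and Lepr, were above clusters 0 and 1. In the MKO column App lay within the range of clusters 0 and 1, Lepr was above it and Rad51b was below the levels of both clusters in that pool. Adgrv1 had the lowest ratio, -3.23, at 2.56 and 0.163, and it was also lower in cluster 0, at 6.71 and 1.39.

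Sterol and glycogen genes were among the lower ones. Abcg5 (3.17 and 0.563) and Abcg8 (4.25 and 1.25), whose products together export sterols into bile, were lower with Soat2 (1.62 and 0.564), which esterifies cholesterol, while Insig2 (2.52 and 7.07), which restrains sterol synthesis, was higher. In that list of 29 genes, 9 passed and the median was 0.14. Gys2, the liver glycogen synthase, was at 8.18 and 2.03, the 1 gene past 2-fold among the 7 of 27 glycolysis and glycogen genes that passed. Plin4, a lipid droplet protein, was at 1.36 and 0.280, the only one past 2-fold of 12 lipogenesis genes that passed of 32. Snd1 (9.86 and 2.37), Tenm3 (7.10 and 1.92), Bach2 (5.53 and 1.499) and Adamts6 (1.90 and 0.467) complete the set. None of the 19 fatty acid oxidation genes that passed of 28 reached 2-fold, with a median of -0.12.

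Some genes had ratios in cluster 3 that departed most from those in clusters 0 and 1. Above them stood Bhmt, Gm15622, Cth, Npas2, Ces3b and Zbtb7c, and below them Rad51b, App, Herpud1, Gm19619, Fgl1 and Lepr. Herpud1, of the endoplasmic reticulum stress response, was at 2.51 and 0.838 in cluster 3, 2.38 and 5.77 in cluster 0 and 3.40 and 5.11 in cluster 1. Fgl1, a secreted hepatocyte protein, was at 7.51 and 3.87 in cluster 3 and at 0.823 and 1.91 in cluster 0. These are differences between single columns, and none was tested.

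Mitochondrial RNA and Malat1 took a larger share of the MKO column in each of the 3 hepatocyte clusters. Mitochondrial transcripts made up 0.156% of the control column and 0.265% of the MKO column of cluster 3, and Malat1, a nuclear long noncoding RNA, 2.98% and 4.70%. Neat1, another nuclear RNA, did not follow, at 29.9 and 17.0036 per 10000 in cluster 3, 32.0442 and 41.95 in cluster 0 and 37.8 and 21.1 in cluster 1. In cluster 0 the mitochondrial shares were 0.170% and 0.317%, and in cluster 1 0.202% and 0.383%. The median log2 ratio of the 11 such genes that passed was 0.71 in cluster 3, 0.82 in cluster 0 and 0.84 in cluster 1. The part of RNA quality in the ratios of cluster 3 was not tested.

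Within each pool, cluster 3 was also set against the mean of clusters 0 and 1, over 2364 genes that reached the filter in any of the 6 columns. It was at least 2-fold higher in both pools for 23 genes (0.973%) and at least 2-fold lower in both for 40 (1.69%). With the larger pseudocount these counts were 12 and 25, and a filter at the 95th percentile gave 13 higher. Taken singly, the control pool gave 53 higher (2.24%) and 76 lower (3.21%) and the MKO pool 96 higher (4.06%) and 114 lower (4.82%). As the clusters were made from these genes, this describes what cluster 3 is.

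Besides Egfr, the genes higher in both pools included the metallothioneins Mt1 (5.59 in the control and 5.96 in the MKO pool) and Mt2 (1.69 and 1.40), which bind zinc and are known to respond to stress hormones. In clusters 0 and 1 Mt1 lay between 0.343 and 1.303. Nnmt had log2 ratios of 2.62 in the control column and 3.19 in the MKO column. Igfbp1, which binds insulin-like growth factors and is raised in fasting, was at 1.26 and 2.42, and Apoa4, an apolipoprotein raised in steatosis and fasting, at 1.20 and 3.94. Gadd45g (0.809 and 3.04), Zbtb16 (1.94 and 4.96) and Rasgef1b (1.72 and 1.24) were further members, with Grin2b, Dlgap2, Slc8a1, AA986860, Ren1 and Egfros. Egfros lies inside Egfr and may hold its reads.

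**Figure D4:**
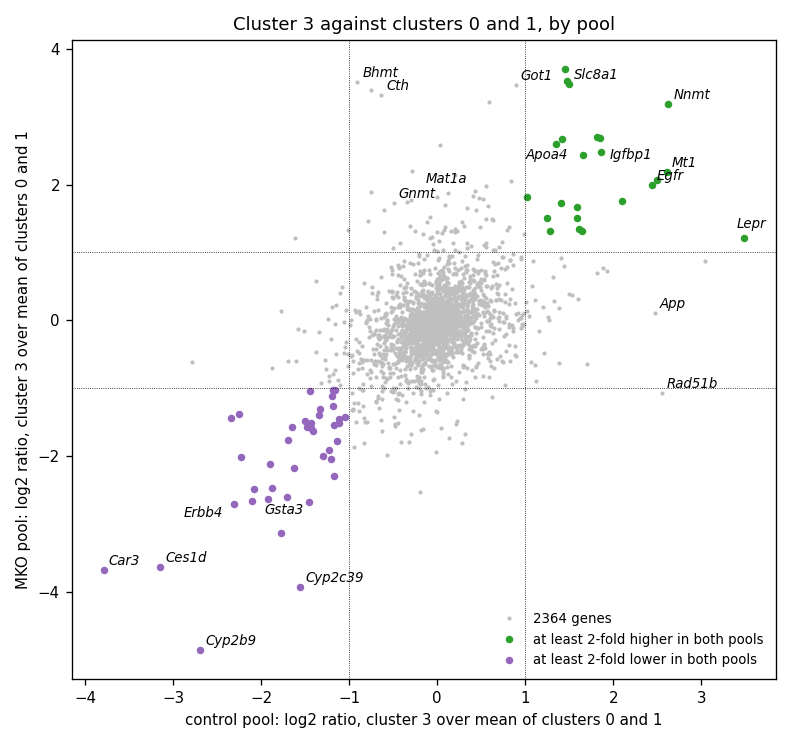
Log2 ratio of cluster 3 over the mean of clusters 0 and 1 for the control pool (horizontal) and the MKO pool (vertical) for 2364 genes, with dotted lines at 2-fold. The 23 genes in green and the 40 in purple pass 2-fold in both pools, while Bhmt and Cth are high on the vertical axis and below 0 on the horizontal one.

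Among genes lower in cluster 3 were enzymes of detoxification and pericentral or sex-biased expression. Car3, a carbonic anhydrase, was at 0.532 and 0.650, against 9.04 and 7.57 in cluster 0 and 8.87 and 11.97 in cluster 1. The carboxylesterases Ces1d (0.251 and 0.244, with 3.49 and 3.81 in cluster 0), Ces3a and Ces1f followed, with Gsta3, a glutathione transferase, at 0.958 and 1.19 and Cyp2b9, Cyp2a5 and Cyp2c39. Erbb4, a relative of Egfr that binds neuregulins, was at 1.99 and 1.06, against 8.66 and 6.56 in cluster 0 and 12.1 and 8.64 in cluster 1. Within the EGFR family and signalling list of 22 genes, Egfr was thus higher and Erbb4 lower in both pools, and Errfi1, a feedback inhibitor of Egfr, stood at 39.3 and 51.4, with 28.5 and 31.7 in cluster 0 and 39.2 and 32.1 in cluster 1. Values of the Ces, Cyp2, Hsd3b, Mup and Mt families are uncertain where near-identical genes share reads.

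By list, the median of cluster 3 over clusters 0 and 1 was -0.96 in the control and -0.46 in the MKO pool for cytochrome P450 and phase II genes, 6 of which were lower in both pools of 23 that reached the filter. For pericentral genes it was -0.82 and -0.48, with Cyp2c29, Slco1b2, Cyp2a5 and Rgn lower in both. For growth hormone signalling and sex-biased genes it was -0.70 and -1.18. Ghr, the growth hormone receptor, was at 35.3 and 15.7 in cluster 3, against 52.2 and 46.9 in cluster 0 and 84.1 and 68.7 in cluster 1. The methionine list had -0.27 in the control and 0.50 in the MKO pool, and the urea cycle list -0.13 and 0.99, with all genes at -0.02 and -0.07.

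The bulk libraries were not used to choose the cluster, and they show how its genes varied between libraries. Their libraries held 17448117 to 23986319 recovered reads, and values are the deposited normalised counts. In whole liver, fewer cells of a type and less RNA per cell cannot be told apart. Bhmt was at 52875, 50016 and 37781 in control libraries 1 to 3 and at 57686, 43598 and 149966 in MKO libraries 1 to 3. Cth was at 6866, 8724 and 6768 in the controls and at 8706, 9237 and 25686 in the MKO libraries. Got1 was at 1384, 2428 and 2173 and at 2141, 2452 and 9150.4. For these genes MKO library 3 stood far above the other 5, while MKO libraries 1 and 2 lay among or close to the controls.

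None of these differences passed limma's test with Benjamini-Hochberg adjustment over 15249 genes. The log2 fold changes of MKO over control, on the log2(value + 1) scale, were 0.64 ± 0.42 (SE) for Bhmt (adjusted p = 0.630), 0.78 ± 0.37 for Cth (0.464) and 0.91 ± 0.50 for Got1 (0.538). Without MKO library 3 they were 0.11, 0.28 and 0.24. Mat1a, at 62085, 85016 and 70069 in controls and at 64391, 95214 and 171563 in MKO libraries, had 0.50 ± 0.36 (limma adjusted p = 0.661). Egfr was at 10605, 9621 and 5818 in controls and at 4344, 9536 and 6113 in MKO libraries, with overlapping groups and a fold change of -0.41 ± 0.31 (limma adjusted p = 0.685). MKO library 3 was the highest of 6 for 4 of the 5 markers, all but Egfr.

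**Figure D5:**
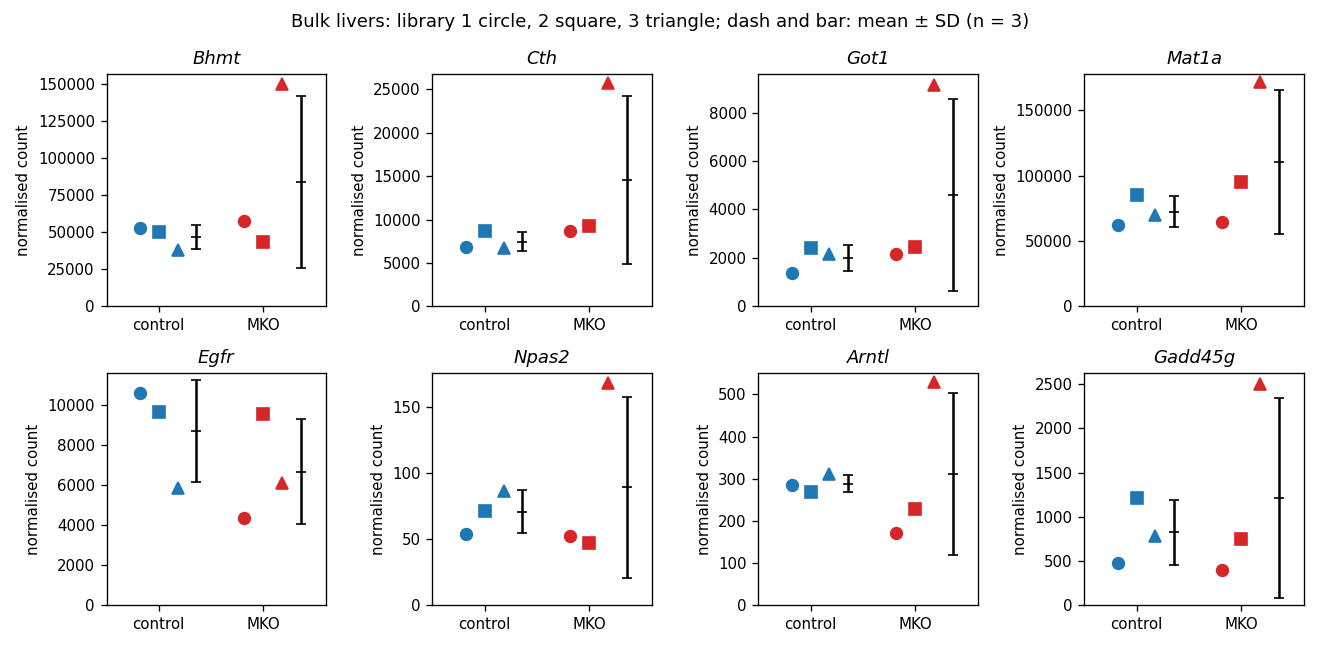
Normalised count (vertical axis, starting at 0) in the 3 control and 3 MKO bulk libraries for 8 genes, with the mean and SD (n = 3) beside each group. MKO library 3, the red triangle, is the highest of the 6 libraries for every gene plotted except Egfr.

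The same library stood out over the genes that differed between the pools. Of the 82 genes at least 2-fold higher in the MKO pool in cluster 3, 78 were measured in bulk, and MKO library 3 was the highest of the 6 libraries for 46 of them, or 59.0%. Over the 2027 bulk-measured genes of the pair comparison that share was 16.2%, and over all 15249 genes 18.2%. Of the 72 lower genes, 69 were measured and MKO library 3 was the lowest for 31, or 44.9%, where the share was 22.2% over genes of the pair comparison and 17.7% over all genes. For genes at least 2-fold higher in the MKO pool in cluster 0, the highest library was MKO 3 for 10 of 33 (30.3%) and control 2 for 14 (42.4%). In cluster 1 it was MKO 3 for 5 of 24 (20.8%) and control 2 for 10 (41.7%). Control 2 was the highest for 19.7% of the genes of the pair comparison and 17.1% of all genes. The difference between clusters was not tested, and the part of 1 liver in the MKO column of cluster 3 was not tested either.

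Genes that mark cluster 3 in both pools overlap with those higher in its MKO column, so their share is not a separate result. Of the 23 genes higher than in clusters 0 and 1, 20 were measured in bulk and MKO library 3 was the highest for 14, or 70.0%. Ren1, the renin gene, was at 33.7, 51.4 and 99.5 in controls and at 145, 139 and 1630.5 in MKO libraries, with a log2 fold change of 2.504 ± 0.87 (limma adjusted p = 0.264), and 1.33 without MKO library 3. Apoa4 was at 42228, 54689.5 and 53605 in controls and at 20548, 62429.6 and 191541 in MKO libraries. Gadd45g was at 480, 1207 and 781 and at 393, 745 and 2503. Each of these had its highest value in MKO library 3, and each was also at least 2-fold higher in the MKO pool in cluster 3.

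Of the 40 genes lower than in clusters 0 and 1, 38 were measured, and the lowest library was MKO 2 for 17 (44.7%) and MKO 3 for 15 (39.5%). Over all 15249 genes MKO 2 was the lowest for 16.4% and MKO 3 for 17.7%. In this set 2 MKO libraries rather than 1 were thus the lowest more often than over all genes. Erbb4 was at 60.8, 63.0 and 81.8 in controls and at 50.04, 24.5 and 35.6 in MKO libraries, which do not overlap, with a log2 fold change of -0.93 ± 0.29 that missed the threshold (limma adjusted p = 0.198). Ghr, which is not among those 40, was at 8791, 8754 and 8045 in controls and at 7662, 5829 and 6121 in MKO libraries, also without overlap, at -0.39 ± 0.14 (limma adjusted p = 0.272). The share of all genes whose groups do not overlap was not counted, so separation alone carries no weight.

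By list, MKO library 3 was the highest of 6 for 9 of 25 methionine genes (36%), 8 of 14 urea cycle genes (57.1%), 16 of 28 amino acid catabolism genes (57.1%) and 13 of 20 periportal genes (65.0%). For the methionine genes it was also the lowest for 5 (20%), and their median log2 ratio of MKO library 3 over the other 5 was 0.01. That median was 0.74 for urea cycle, 0.38 for amino acid catabolism and 0.82 for periportal genes, lists that share members. MKO library 3 was the highest for 2 of 22 pericentral genes (9.09%). Asl was at 4291, 5344 and 4164 in controls and at 5673, 5407 and 18072.6 in MKO libraries, and Aass was at 7222, 7806 and 6130 and at 6668, 6703 and 24307. MKO library 3 was the highest for 13 of 21 macrophage genes (61.9%) and 8 of 14 T and NK cell genes (57.1%), against 18.2% of all genes. The median log2 fold change of macrophage genes was 1.52 with all libraries and 1.45 without MKO library 3. For T and NK cell genes it was 1.55 and 1.47, so these medians did not rest on that library. The number of genes that limma called did fall without it. Higher macrophage genes went from 15 to 6 and lower ones from 1 to 2, and higher T and NK cell genes from 3 to 0. Over all genes the higher ones went from 452 to 181. The part of these cells in the hepatocyte values of MKO library 3 was not tested. Their summed levels in the nuclei of cluster 3 are those given above.

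Of the 21 clock genes measured in bulk, MKO library 3 was the highest for 2 (9.52%) and MKO library 1 for 11 (52.4%). Over all 15249 genes these shares were 18.2% and 21.8%. Nr1d2 and Tef, lower in the MKO pool, had their lowest bulk values in MKO library 3, at 1420 and 1642. The other clock genes past 2-fold between the pools were Npas2 and Arntl. Npas2 was at 54.3, 71.4 and 86.7 in controls and at 52.5, 46.9 and 169 in MKO libraries. Arntl was at 286, 269 and 310.4 in controls and at 172, 228 and 530 in MKO libraries. For both, MKO library 3 was the highest and MKO libraries 1 and 2 were below every control library, and their limma log2 fold changes were 0.10 ± 0.45 and -0.06 ± 0.35. The times of day at which livers were taken were not given in the sources used here.

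In the replicated test, few of the cluster's genes passed. Over all 15249 genes limma called 452 higher (2.96%) and 13 lower (0.0853%) in MKO at an adjusted p under 0.05. Of the 78 genes higher in the MKO pool none was called by limma, with 5 at an unadjusted p under 0.05, none by edgeR and 1 by DESeq2. Over all 15249 genes, 1847 (12.1%) had such a p, and DESeq2 called 684 (4.49%). The 2027 genes of the pair comparison, from which these 78 come, were also seldom called. Among those 2027, limma called 1 higher and 4 lower, 142 had such a p, edgeR called 5 and DESeq2 21. Over the genes that passed its own filter, edgeR called 471 higher and 14 lower. Of the 69 lower genes 11 had an unadjusted limma p under 0.05, edgeR called 1 and DESeq2 2. Limma called 1, Abhd17c, named here after its values were seen. It encodes a depalmitoylating enzyme and was at 1920, 1964 and 1903 in controls and at 1401, 1375 and 1448 in MKO libraries, a log2 fold change of -0.45 ± 0.09 (limma adjusted p = 0.0409, and 0.107 without MKO library 3). In cluster 3 Abhd17c was at 1.56 and 0.709.

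Of the 23 genes higher in cluster 3 than in clusters 0 and 1, limma called Rasgef1b, a Ras-family exchange factor that macrophages also express, at 252, 314 and 260.2 in controls and at 439, 518 and 493 in MKO libraries. Its log2 fold change was 0.81 ± 0.14 (limma adjusted p = 0.0156, and 0.0729 without MKO library 3), while in cluster 3 the level was 1.72 in the control and 1.24 in the MKO pool. In the methionine list limma called 1 of 25 genes, Gclc, which fell from 11018, 10651 and 12113 in controls to 7716, 5539 and 5066 in MKO libraries. Its log2 fold change was -0.90 ± 0.17 (limma adjusted p = 0.0257, and 0.104 without MKO library 3), and the groups did not overlap. Zbtb16, a transcription factor induced by glucocorticoids, was at 303, 454 and 275 in controls and at 74.5, 110.1 and 554 in MKO libraries. With all 6 libraries its log2 fold change of -1.01 did not pass limma's threshold (adjusted p = 0.605), and without MKO library 3 it was -1.88 and passed (0.0287).

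Several genes with low ratios in cluster 3 did not share them in whole liver. Rad51b was at 255, 396 and 504 in controls and at 354, 426 and 251 in MKO libraries, App at 1693, 2033 and 2413 and at 1561, 2601 and 1889.6, and Lepr at 108, 431 and 531 and at 203, 1451 and 838. The groups overlapped for all 3 genes. Cdh18 did not overlap, with 64.1, 60.9 and 63.1 in controls against 40.3, 49.97 and 32.7 in MKO libraries. Bach2, with 190.0, 231 and 171 against 170, 132 and 102, was apart only by 171 against 170. The log2 fold changes of Cdh18 and Bach2 were -0.62 ± 0.23 (limma adjusted p = 0.291) and -0.57 ± 0.21 (0.311). As for Erbb4 and Ghr, such separation is given without its share over all genes. Cyp7a1, higher in cluster 3 of the MKO pool, was at 2566, 1299.6 and 1878 in controls and at 2667, 4214 and 2843 in MKO libraries, again without overlap, at 0.78 ± 0.26 (limma adjusted p = 0.223). Hamp was at 5520.4, 9719 and 6026 in controls and at 8099, 1587 and 16784 in MKO libraries, with overlapping groups and its highest value in MKO library 3.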

How the data were processed

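Mean levels of nuclei in 13 clusters and 2 pools, and bulk values of 6 libraries, were analysed. Per the labels' protocols, frozen tissue gave the nuclei, which were sorted after propidium iodide staining and went through the 10x Genomics Chromium workflow. The submitters' processing notes name Seurat 4.0.1, Cell Ranger, STAR, RSEM 1.3.3, FastQC and DESeq2, and build mm10. Clustering, numbers of nuclei, doublet treatment, how the averages were formed and strand use in counting were not given in the sources used here. Depth behind the cluster means is therefore unknown. The nucleus table deposited by the authors is a signal, with each column summing to 10000. The bulk table, also a signal deposited by the authors, holds counts per gene after division by the size factor of each library. Whole reads were recovered for 100% of these values within a tolerance of 0.01, with 1 read worth 0.963 to 1.22. The authors' deposited log2 fold changes and p-values were not used here.

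Log2 ratios of nucleus means used a pseudocount of 1/10 of the 90th percentile. Bulk values were tested with limma-trend (limma 3.58.1, R 4.3.3) on log2(value + 1) over 15249 of 15283 genes with a mean of at least 1, with Benjamini-Hochberg adjustment and a threshold of 0.05. Recovered reads were tested with edgeR 4.0.16 and DESeq2 1.42.0. In MKO, edgeR called 471 genes higher and 14 lower, and DESeq2 634 higher and 50 lower. No 2 bulk libraries agreed within sampling noise (chi-square over degrees of freedom, 28.1 to 73.1). Scripts were tested on simulated data. Figures and ratios used Python 3.11.15.

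The members and lists were chosen with earlier results of these data known. Named genes were the 5 markers and Tgfbr1, the 15 highest and 15 lowest over clusters 0 and 1 by the pool nearer 0, the 12 highest and 12 lowest pool ratios, the 6 furthest above and below clusters 0 and 1, up to 4 abundant members of each of 35 lists, and the methionine list. Predicted genes were named only among the first 3. The protein comparison planned for Bhmt and Bhmt2 was not run.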

Additional observations from a re-analysis of the deposited data

Results flagged for a closer look

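In 6 of the named genes the log2 ratio of MKO over control pool passed 2-fold in cluster 3 and passed 2-fold the opposite way in cluster 0 or 1, which is what singled them out. Each value rests on 1 pool per genotype, and the differences between clusters were not tested. For Bhmt the ratio was 3.39 in cluster 3, -0.61 in cluster 0 and -1.28 in cluster 1. Gm15622, inside Bhmt on the other strand, had 3.20, -0.46 and -1.23. Cth had 1.68, -1.26 and -2.82, Got1 had 1.04, -1.18 and -1.70, and Aass had 1.24, -1.10 and -1.35. Herpud1, of the endoplasmic reticulum stress response, went the other way with -1.45, 1.23 and 0.57.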

How the results depend on the processing

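With a pseudocount of 1/2 of the 90th percentile, cluster 3 had 41 genes higher and 41 lower in the MKO pool, and 12 higher and 25 lower than clusters 0 and 1 in both pools. A filter at the 95th percentile left 13 genes higher than clusters 0 and 1. In bulk, leaving out 1 library gave 175 to 410 genes higher and 5 to 31 lower, with 238 higher without control 2, 175 without MKO 2 and 181 without MKO 3. Quantile normalisation gave 7 lower genes, edgeR 14 and DESeq2 50. Without MKO library 3, the median bulk log2 fold changes of the gene sets higher in cluster 3 changed sign. For the 78 genes higher in the MKO pool the median went from 0.057 to -0.098. That is near the median over the 2027 genes of the pair comparison, -0.081 with all libraries and -0.092 without MKO library 3. Over all 15249 genes the median was -0.024 and -0.022. For the 20 genes higher than in clusters 0 and 1 it went from 0.275 to -0.295. For the lower genes of each comparison it stayed negative, from -0.22 to -0.11 and from -0.31 to -0.22. With the replicate number as a block, 391 genes were higher and 17 lower, and Abhd17c lost its call. Same-numbered libraries deviated from their group means with correlations of 0.06, -0.03 and -0.11, and differently numbered ones with -0.11 to 0.15. No sign of pairing by number was seen, but 3 libraries per group cannot exclude it. Abhd17c, Gclc and Rasgef1b each lost their call in several fits with 1 library left out. The share of genes with MKO library 3 the highest was 55.6% to 69.2%, and of those with it the lowest 44.0% to 48.1%, under 7 alternatives chosen after seeing the data. With 1 pool per genotype and unknown numbers of nuclei, differences between columns have no error, and ratios of genes near the filter depend on the pseudocount (Ces3b 1.56 to 3.77, Npas2 1.38 to 3.24).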
